A study of Mus musculus with 2 samples.

Results

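Translation of mRNA into protein needs a set of helper proteins that are not part of the ribosome. The initiation factors (eIFs) bring the initiator tRNA, the small ribosomal subunit and the capped mRNA together, and the elongation factors (eEFs) deliver aminoacyl-tRNA and move the ribosome along the mRNA. Liver cells make large amounts of secreted protein, and phosphorylation of eIF2 and sequestration of eIF4E are the main ways by which cells slow initiation under stress or without nutrients.

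Chromatin accessibility at the genes of these factors was taken from ATAC-seq of mouse liver. In this assay the Tn5 transposase cuts open chromatin and inserts sequencing adaptors, so the reads on a region rise with its openness. The regions were chosen by gene symbol: every distinct region whose closest gene was named *Eif1* to *Eif6* or *Eef1* to *Eef2*, with any further letters. This gave 128 of the 69549 regions, assigned to 55 of the 27433 genes. A promoter was the region with the most reads among those centred within 1000 bp of the transcription start site (TSS), and 52 of the 55 genes had one, of 13163 genes in all. *Eef1akmt3*, *Eif3j2* and *Eif3m* had regions only farther away. The name rule also takes in the eIF2 kinases, the eIF4E binding proteins, and methyltransferases and other proteins named after a factor, so that 39 of the 52 promoters belong to translation factors proper. All 55 are called translation factor genes below for short.

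There was 1 library per group. The control library came from *Mettl3* flox/flox mice, in which exons 2 and 3 of the m6A RNA methyltransferase gene *Mettl3* lie between loxP sites, and the other from *Mettl3*-HKO mice (*Mettl3* flox/flox *Alb-Cre*+/-). Both groups were on the C57BL/6 background, 8 weeks old and fed normal chow, and each library was pooled from the livers of 4 mice. *Alb-Cre* deletes in hepatocytes, so the other cells of the liver keep *Mettl3*, and the control mice carried no Cre. A single pool stood for each genotype, so the spread between mice is unknown and no test of genotype was possible. All intervals below are 95% Clopper-Pearson intervals that cover counting error only, and the genotype and the choice of pooled mice cannot be told apart.

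The libraries differed in depth and in the share of reads on regions. By the authors' totals of 52826202 reads for flox/flox and 58038305 for HKO, 31.7% and 22.3% of the reads lay on regions. Log2 ratios of HKO over flox/flox on these totals therefore leaned to the negative side, with medians of −0.57 (all promoters) and −0.38 (all regions). Each promoter was also set against the 1000 promoters nearest to it in mean signal: the relative log2 ratio is its log2 ratio minus the median of those promoters. Of the liver markers, all 8 hepatocyte genes had a promoter region, with a summed signal of 103.8 RPM (reads scaled to the library total) in flox/flox and 60.8 in HKO. Of this, *Pck1* had 44.5 and 18.9 RPM and *Alb* 9.11 and 9.20 RPM, and against promoters of the same signal 4 of the 8 were higher and 4 lower, with a median relative log2 ratio of −0.037. Endothelial markers had a promoter region for 7 of 8 genes, with a summed 3.03 RPM in flox/flox and 7.01 RPM in HKO, and *Pecam1* had none. Macrophage markers had 1 of 8 (0.170 RPM in flox/flox and 0.706 RPM in HKO), stellate markers 2 of 8 (13.8 and 3.05 RPM, most of it *Reln* with 690 and 132 reads), cholangiocyte markers 5 of 8 (15.8 and 12.1 RPM) and lymphocyte markers 0 of 8. The part of a changed cell mixture in the ratios was not tested, and more cells of a type cannot be told apart from more open chromatin per cell. The *Mettl3* promoter, which lies outside the deleted exons and so does not check the genotype, had 566 reads in flox/flox and 392 in HKO.

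The sequences upstream of 10 of the genes are shown so that promoters of abundant factors can be read beside those that differed most and least between the libraries. Each is the 150 bases before the RefSeq start (RefSeq, GRCm38), 5′ to 3′ on the strand of the gene. The RefSeq start lay 0 to 58 bases from the TSS of the authors in these genes. Capitals mark matches on either strand to short motif words. The GC box was searched as GGGCGG and the ETS core as CCGGAA. The word for the TATA box was TATAAA, that for the E-box was CACGTG and that for the NRF1 core was TGCGCA. The CCAAT box was searched by the letters in its name, and a YY1 core, AAGATGG, occurs in none of the stretches shown. None of these words contains another, although neighbouring matches can touch.
*Eif3f*, chr7:108934265-108934414, plus strand: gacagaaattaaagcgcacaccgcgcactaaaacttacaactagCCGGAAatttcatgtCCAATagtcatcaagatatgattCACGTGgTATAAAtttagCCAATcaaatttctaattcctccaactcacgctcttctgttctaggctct
*Eef1a1*, chr9:78481725-78481874, minus strand: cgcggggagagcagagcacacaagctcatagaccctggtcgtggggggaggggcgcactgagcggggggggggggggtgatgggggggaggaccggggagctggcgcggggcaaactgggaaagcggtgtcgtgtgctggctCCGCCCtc
*Eef2*, chr10:81176481-81176630, plus strand: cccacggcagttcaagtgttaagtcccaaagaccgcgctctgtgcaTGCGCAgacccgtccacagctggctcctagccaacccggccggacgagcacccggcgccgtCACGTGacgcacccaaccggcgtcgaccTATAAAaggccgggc
*Eif2ak3*, chr6:70844365-70844514, plus strand: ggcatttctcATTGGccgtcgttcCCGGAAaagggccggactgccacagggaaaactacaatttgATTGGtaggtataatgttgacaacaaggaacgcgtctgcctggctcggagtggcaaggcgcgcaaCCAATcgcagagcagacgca
*Eif2d*, chr1:131153057-131153206, plus strand: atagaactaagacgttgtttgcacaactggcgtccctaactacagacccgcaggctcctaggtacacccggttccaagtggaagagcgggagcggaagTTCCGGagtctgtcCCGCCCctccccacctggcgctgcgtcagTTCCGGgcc
*Eif3c*, chr7:126566367-126566516, minus strand: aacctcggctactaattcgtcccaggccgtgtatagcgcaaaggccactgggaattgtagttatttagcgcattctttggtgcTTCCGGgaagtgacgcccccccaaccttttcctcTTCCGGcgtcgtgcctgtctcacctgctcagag
*Eif1ad*, chr19:5366663-5366812, plus strand: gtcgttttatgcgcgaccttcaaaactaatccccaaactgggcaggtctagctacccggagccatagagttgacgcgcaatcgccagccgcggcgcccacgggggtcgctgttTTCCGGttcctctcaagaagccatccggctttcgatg
*Eif3g*, chr9:20898591-20898740, minus strand: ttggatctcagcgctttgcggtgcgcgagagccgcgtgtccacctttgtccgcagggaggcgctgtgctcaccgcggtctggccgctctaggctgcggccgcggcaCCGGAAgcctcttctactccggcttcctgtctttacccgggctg
*Eif2s3x*, chrX:94212652-94212801, minus strand: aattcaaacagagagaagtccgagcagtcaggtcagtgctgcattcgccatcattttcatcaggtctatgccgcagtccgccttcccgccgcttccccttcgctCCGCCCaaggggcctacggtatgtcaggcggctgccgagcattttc
*Eif2s3y*, chrY:1010445-1010594, plus strand: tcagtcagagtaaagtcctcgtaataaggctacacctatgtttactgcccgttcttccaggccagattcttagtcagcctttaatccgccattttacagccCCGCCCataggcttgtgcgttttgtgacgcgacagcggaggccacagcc
The first 3 belong to abundant factors, *Eif2ak3*, *Eif2d* and *Eif3c* had nearly equal signal in the libraries, *Eif1ad*, *Eif3g* and *Eif2s3x* were at least 2-fold lower in HKO, and *Eif2s3y* is the Y-linked copy of *Eif2s3x*. *Eif2b3*, the promoter with the lowest ratio, had no sequence in the RefSeq table used. The short upstream stretch of *Eif3f* holds an ETS core, a pair of CCAAT boxes, an E-box and a TATA box, while that of *Eif2s3x* holds a single GC box.

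Over the 250 bases before the start, 43 of the 52 promoters matched the RefSeq table, and 7965 promoters in all did. A GC box was found in 30 of the 43 (69.8%, against 62.3% of all). An ETS core was found in 14 (32.6%, against 22.2%), and a CCAAT box in 11 (25.6%, against 36.5%). The E-box stood in 9 (20.9%, against 8.78%), namely *Eef2*, *Eef2k*, *Eif3f*, *Eif3k*, *Eif4a1*, *Eif4g1*, *Eif4h*, *Eif5a* and *Eif5a2*. The NRF1 core stood in 10 (23.3%, against 12.2%) and the TATA box in 5 (11.6%, against 6.10%). The YY1 core stood in 2 (4.65%, against 3.69%). The median GC content was 60.0% over the 43 and 60.4% over all. The relative log2 ratio had a median of 0.19 over the 9 promoters with an E-box and 0.045 over the 34 without, where all promoters had 0.034 with and 0.00029 without. The CCAAT box went the other way, with −0.030 over 11 promoters with it and 0.11 over 32 without, while all promoters had 0.033 with and −0.011 without. The medians with and without the word were 0.11 and 0.043 for the GC box, 0.053 and 0.10 for the ETS core, 0.057 and 0.10 for the NRF1 core and 0.071 and 0.077 for the TATA box. Over all promoters they were 0.0079 and −0.0025 for the GC box, 0.0060 and 0.0031 for the ETS core, −0.0011 and 0.0051 for the NRF1 core and 0.0096 and 0.0040 for the TATA box. For the YY1 core the medians were −0.032 over only 2 promoters with it and 0.10 over 41 without, beside 0.057 and 0.0011 over all promoters. These are letter matches, and whether a factor binds was not measured.

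Promoters of translation factor genes had more signal than the median promoter. All 52 had a peak in both libraries, against 87.1% of all promoters, 91.0% of those of genes with a symbol and 98.4% of those within the members' range of signal. Their regions were 1012.5 bp long in the median, against 808, 856 and 898 bp in these sets. Fold enrichment, the reads per base of a region over the reads per base of the genome, allows comparison between genes and had a median of 35.9 in the flox/flox library, against 26.8 over all promoters, 29.2 over those with a symbol and 32.5 within the range of signal. It lay above the median of all promoters in 39 of the 52 and in the upper 10% in 9. The highest value was that of *Eif3f*, a subunit of eIF3, with 146.9 in flox/flox and 97.9 in HKO. *Eif2ak4*, *Eef1b2*, *Eif3e* and *Eif1* followed, at 77.5, 76.7, 73.9 and 72.6 in flox/flox. These 4 lay close together, and no replicate shows whether their order holds. The lowest values were those of *Eef1akmt2* (9.45), *Eif3l* (11.0) and *Eif3c* (11.9), followed by *Eif2d*. The centre of the region lay in the 5′ UTR for 15 promoters, in exon 1 for 9, in intron 1 for 12 and between genes for 14. Among those in exon 1, that of *Eif4e3* lay in exon 1 of *Gm20696*. The centre for *Eif4ebp3* lay in intron 34 of *Ankhd1* and that for *Eef2kmt* in the last intron of a gene without a symbol.

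**Figure D1:**
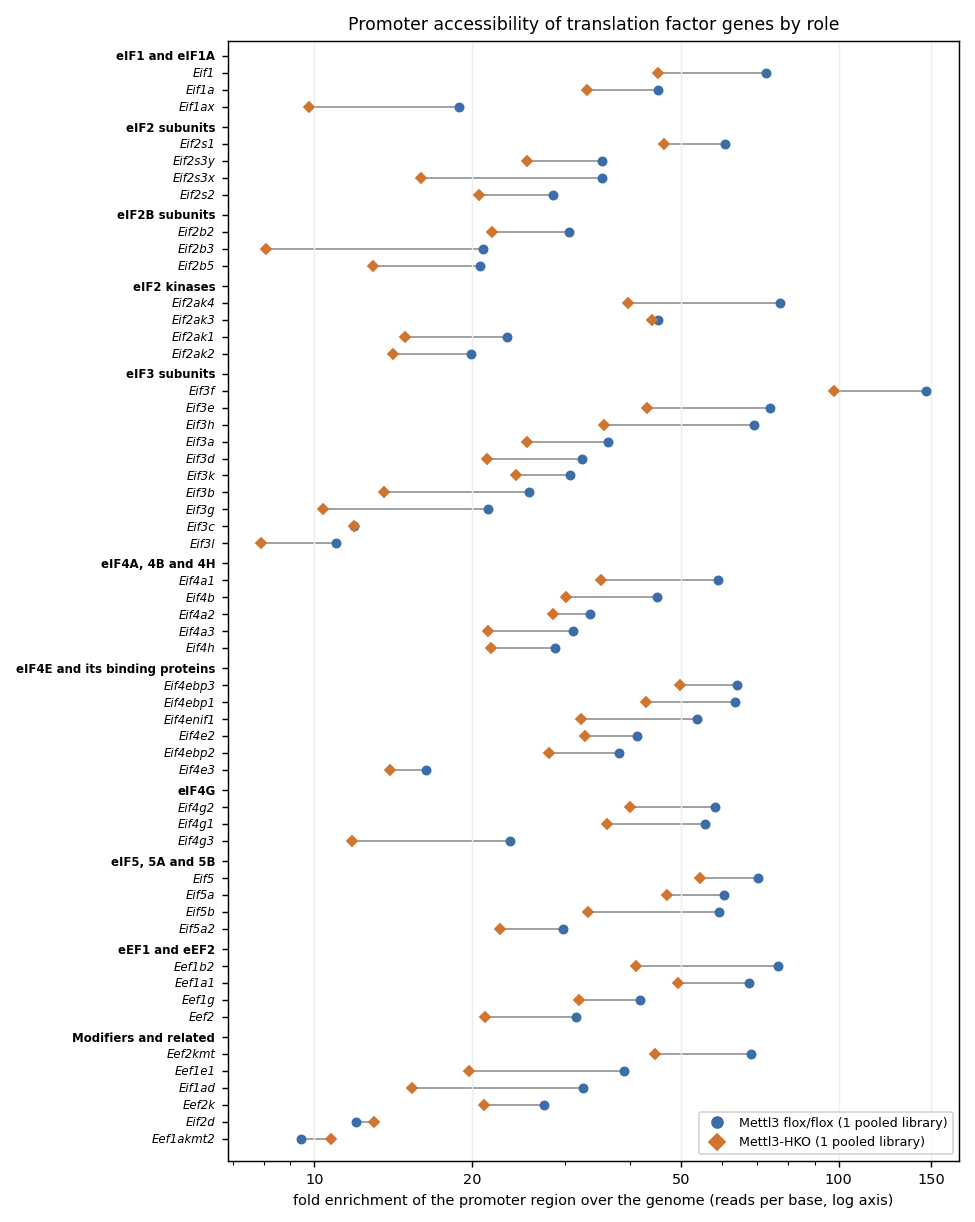
Fold enrichment (reads per base of the promoter region over reads per base of the genome, log axis) of the 52 promoters in the *Mettl3* flox/flox library (circles) and the *Mettl3*-HKO library (diamonds), by role and ordered within each role by the flox/flox value. The diamond lies left of the circle in 50 promoters, and *Eif3f* stands farthest right at 146.9 and 97.9.

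Nearly every promoter had less signal in the HKO library, as promoters did in general. The median log2 ratio of the 52 was −0.54, the range −1.38 to 0.19 and the SD over genes 0.32. The log2 ratio was below 0 in 50 of them, and over all promoters in 85.1%. Raw reads were lower in HKO in 48 and higher in 4. No member was at least 2-fold higher, against 3.84% of all promoters and 0.641% of the 10133 promoters within the members' range of signal. At least 2-fold lower were 4 of 52 (7.69%), against 15.9% of all promoters and 16.4% within that range of signal. The scaling sets where 0 lies. Once the ratios were centred on all regions, 41 of the 52 had a log2 ratio below 0 and none was 2-fold away in either direction, while 6.43% of all promoters were then 2-fold higher and 4.61% lower. After centring on the strongest 10% of promoters, 17 were below 0 and 35 above, with a median of 0.12 beside 0.086 over all promoters. Scaled to the reads on regions, 28 were below 0 and 24 above.

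Set against promoters of the same mean signal, a measure from which a common scaling cancels, the median relative log2 ratio of the 52 was 0.097 (middle 50% −0.13 to 0.25), beside 0.0027 (−0.29 to 0.27) over all promoters. It was positive in 32 and negative in 20. The interval lay wholly above the median of same-signal promoters in 19 of 52 (36.5%), where 28.4% of all promoters did so, and wholly below it in 12 (23.1%), where 29.2% did so. The other 21 included it.

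**Figure D2:**
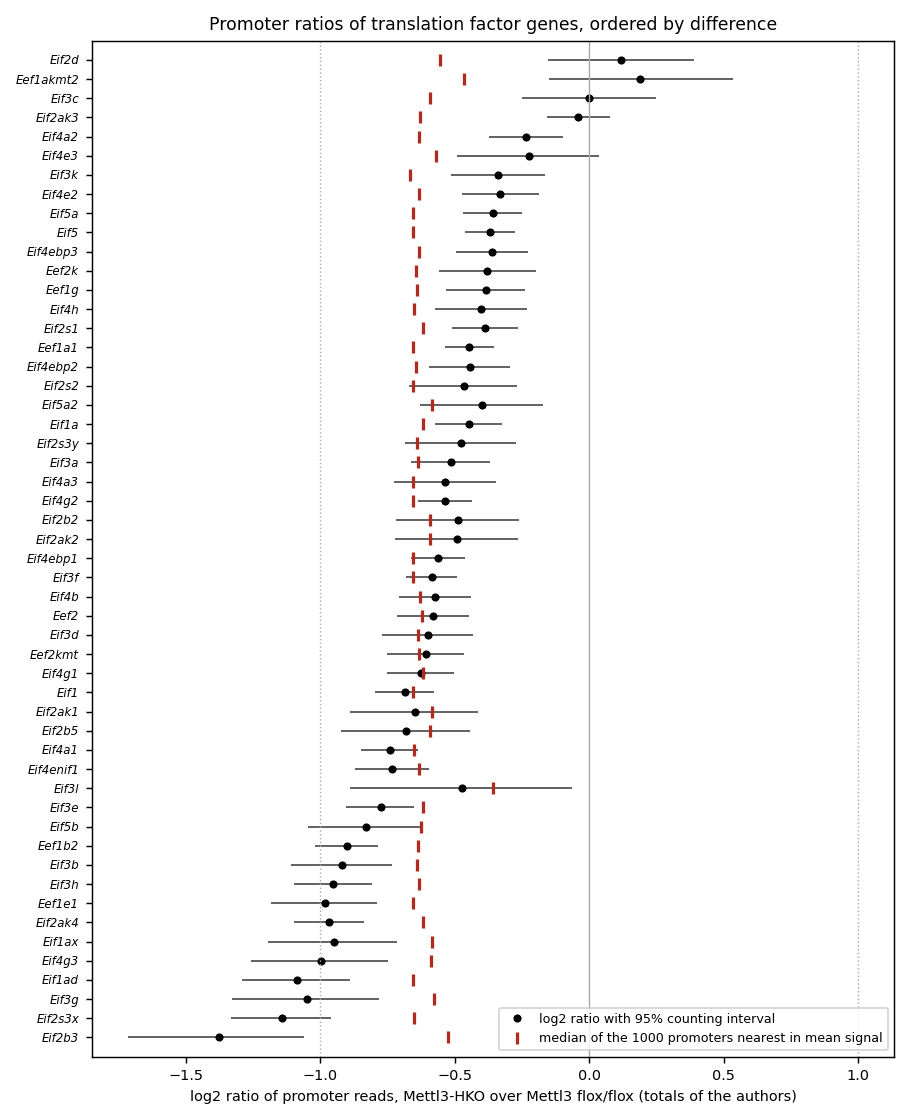
Log2 ratio of promoter reads, HKO over flox/flox on the authors' totals, for the 52 promoters ordered by relative log2 ratio. Points carry 95% counting intervals, red marks give the median of the 1000 promoters nearest in mean signal, and dotted lines mark 2-fold. *Eif2b3* stands lowest at −1.38 and *Eif2d* and *Eef1akmt2* are the only promoters right of 0.

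**Figure D3:**
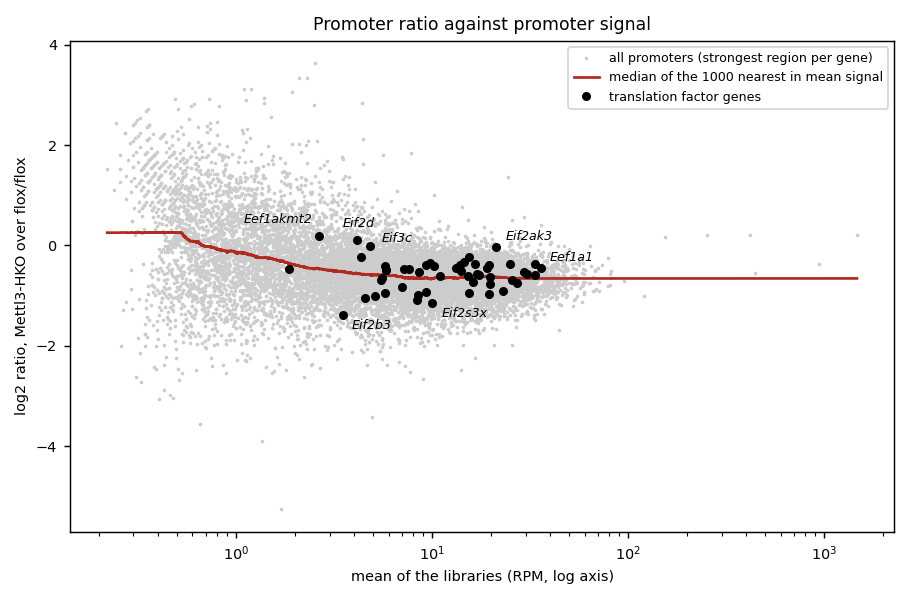
Log2 ratio against the mean RPM of the libraries (log axis) for all 13163 promoters (grey) and the 52 promoters of the genes described here (black), with the running median of the 1000 nearest promoters in red. The black points follow the red line, which lies near −0.6 over most of their range, within a band narrower than that of the weaker promoters.

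eIF1 and eIF1A bind the small subunit and help it to find the start codon. *Eif1* had 1656 reads in flox/flox and 1131 in HKO, a log2 ratio of −0.69 (interval −0.80 to −0.58) that matched its same-signal promoters with a relative value of −0.030. *Eif1a* had 1167 and 939 reads and a relative value of 0.17, with its interval above. The X-linked *Eif1ax* was lower, with 400 and 227 reads and a log2 ratio of −0.95 (−1.19 to −0.71). Its relative value was −0.36, with the interval below. The copies of eIF1A thus lay on opposite sides of same-signal promoters in this pair of libraries.

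eIF2 carries the initiator tRNA to the ribosome as a complex with GTP. Its alpha subunit gene *Eif2s1*, whose product is the one that stress kinases phosphorylate, had 1167 reads in flox/flox and 980 in HKO, with a relative log2 ratio of 0.23 and the interval above. The beta subunit gene *Eif2s2* had 466 and 370 reads, and its relative value of 0.19 had an interval that included same-signal promoters. The gamma subunit has an X-linked and a Y-linked gene. *Eif2s3x* had 729 reads in flox/flox and 362 in HKO, a log2 ratio of −1.14 (−1.33 to −0.96), and was 1 of the 4 promoters at least 2-fold lower. *Eif2s3y* had 441 and 348 reads, a log2 ratio of −0.48 (−0.68 to −0.27), and the intervals of the pair did not overlap. The genes are related copies, and how well reads were told apart between them was not checked, although the upstream stretches printed above differ. The sex of the pooled mice is not in the labels. The 5 Y-linked promoters held 1617 reads in flox/flox and 1440 in HKO, which points to males in both pools, in unknown number. Over the 392 X-linked promoters the median relative value was −0.12 and 38.5% had an interval below, while the 5 Y-linked promoters had a median of 0.16. The part of the sex chromosomes in these values was not tested. Without them the median over the members was −0.54 and the median relative value 0.10.

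eIF2B recharges eIF2 with GTP and is the enzyme that phosphorylated eIF2 blocks. *Eif2b3*, its gamma subunit gene, had the lowest ratio of all members, with 266 reads in flox/flox and 112 in HKO, or 5.05 and 1.95 RPM. The log2 ratio was −1.38 (−1.72 to −1.06) and the relative value −0.85, which placed it at percentile 4.4 of its 1000 same-signal promoters. *Eif2b5*, the catalytic epsilon subunit gene, had 355 and 243 reads with a relative value of −0.089, and *Eif2b2* had 359 and 281 with 0.10. Both intervals included same-signal promoters. The other subunit genes, *Eif2b1* and *Eif2b4*, lay in regions assigned to neighbouring genes and are not members.

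The 4 eIF2 kinases sense different stresses, and their promoters spread widely. *Eif2ak3*, which encodes PERK, the kinase of the endoplasmic reticulum, had 1139 reads in flox/flox and 1217 in HKO. Its log2 ratio was −0.040 (−0.16 to 0.078), and its relative value of 0.59 stood at percentile 98.3 of same-signal promoters, the highest percentile of any member. *Eif2ak4*, which encodes the amino acid sensor GCN2, had 1367 and 768 reads and a log2 ratio of −0.97 (−1.10 to −0.84), with a relative value of −0.35 and the interval below. The heme-regulated kinase gene *Eif2ak1* had 356 and 249 reads with a relative value of −0.063. *Eif2ak2*, which encodes the double-stranded RNA sensor PKR, had 360 and 281 with 0.10. The intervals of these last genes included same-signal promoters. Upstream of *Eif2ak3*, 19.7 kb from its TSS, a further region had 310 reads in flox/flox and 581 in HKO, a log2 ratio of 0.77 (0.57 to 0.97). The surplus of raw reads at the *Eif2ak3* promoter in HKO, the deeper library, did not remain after scaling, with 21.6 RPM in flox/flox and 21.0 in HKO.

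eIF3 is the largest initiation factor, a scaffold of many subunits on the small ribosomal subunit, and 10 of its subunit genes had a promoter region. Their median relative value was −0.040, with 2 intervals above, 4 below and 4 including same-signal promoters, where 28.4% of all promoters were above and 29.2% below. *Eif3c*, a core subunit, had 255 reads in flox/flox and 280 in HKO, a log2 ratio of −0.0013 (−0.25 to 0.25) and a relative value of 0.59. *Eif3k* was also above, with 576 and 500 reads and a relative value of 0.33. *Eif3g*, an RNA-binding subunit, was at least 2-fold lower, with 323 and 171 reads and a log2 ratio of −1.05 (−1.33 to −0.78). *Eif3h* (1076 and 610 reads), *Eif3b* (639 and 371) and *Eif3e* (1318 and 845) had relative values of −0.32, −0.28 and −0.16 with intervals below. The strongest, *Eif3f*, had 2127 and 1557 reads and a relative value of 0.071. *Eif3a*, the largest subunit, had 870 and 669 reads with 0.12, and *Eif3d*, which can bind the cap, had 696 and 504 with 0.035. *Eif3l* had the fewest reads of any member, 114 and 90, and its wide interval of −0.89 to −0.065 included same-signal promoters.

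eIF4F recognises the cap: eIF4E binds it, eIF4G is the scaffold and eIF4A the helicase that unwinds the 5′ end with help from eIF4B and eIF4H. Among the helicase genes, *Eif4a2* had 882 reads in flox/flox and 823 in HKO, with a log2 ratio of −0.24 (−0.37 to −0.097) and a relative value of 0.40. *Eif4a1* had 1791 and 1176 reads, a log2 ratio of −0.74 (−0.85 to −0.64) and a relative value of −0.089. The intervals of these paralogs did not overlap. *Eif4a3*, a part of the exon junction complex, had 536 and 406 reads with 0.12. *Eif4h* had 617 and 513 reads with 0.25 and its interval above, and *Eif4b* had 1068 and 788 with 0.054.

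The 6 genes for eIF4E proteins and their partners had a median relative value of 0.24, with 4 intervals above and none below (28.4% and 29.2% over all promoters). *Eif4e2*, a cap-binding homologue that represses translation, had 853 reads in flox/flox and 745 in HKO and a relative value of 0.30. *Eif4e3*, a further homologue, had 247 and 232 with 0.34. The genes of the 4E-binding proteins, which hold eIF4E away from eIF4G until mTOR phosphorylates them, had 805 and 650 reads (*Eif4ebp2*, 0.20), 984 and 841 (*Eif4ebp3*, 0.27) and 1909 and 1420 (*Eif4ebp1*, 0.094). The interval was above for *Eif4ebp2* and *Eif4ebp3* and included same-signal promoters for *Eif4ebp1*. *Eif4enif1*, which encodes a transporter of eIF4E, had 1070 and 707 with −0.100. Among the scaffold genes, *Eif4g1* had 1266 and 901 reads with −0.0066, and *Eif4g2* had 1837 and 1392 with 0.12 and its interval above. *Eif4g3* had 361 and 198 reads, or 6.85 and 3.43 RPM, with −0.41 and its interval below. Its log2 ratio of −0.999 (−1.26 to −0.75) fell just short of 2-fold.

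The last steps of initiation are GTP hydrolysis on eIF2, which eIF5 triggers, and joining of the large subunit by eIF5B. *Eif5* had 2001 reads in flox/flox and 1702 in HKO, a log2 ratio of −0.37 (−0.46 to −0.28) and a relative value of 0.29. *Eif5b* had 473 and 292 reads, a log2 ratio of −0.83 (−1.05 to −0.62), and an interval that reached its same-signal median of −0.63. *Eif5a*, the hypusine-containing factor that helps with stalling sequences, had 1482 and 1269 reads with a relative value of 0.30 and the interval above. Its paralog *Eif5a2* had 346 and 288 with 0.19.

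Elongation rests on eEF1A, which brings aminoacyl-tRNA, its exchange factor eEF1B, and the translocase eEF2. *Eef1a1* had 2190 reads in flox/flox and 1766 in HKO, the most reads of any member, with a log2 ratio of −0.45 (−0.54 to −0.36) and a relative value of 0.21. The exchange factor genes among the members differed: *Eef1g* had 833 and 701 reads with 0.26 and the interval above, and *Eef1b2* had 1582 and 930 with −0.26 and the interval below. A further exchange factor gene, *Eef1d*, was not among the members. *Eef2* had 1094 and 803 reads with a relative value of 0.043, and *Eef2k*, whose kinase switches eEF2 off, had 553 and 467 with 0.26 and the interval above. *Eef2kmt*, which encodes a methyltransferase of eEF2, had 968 and 697 with 0.026.

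The remaining genes, modifiers and related proteins, lay at both ends of the order. *Eif2d*, a translation factor proper, encodes a factor that can deliver tRNA without eIF2. It had 208 reads in flox/flox and 248 in HKO, a log2 ratio of 0.12 (−0.15 to 0.39) and the highest relative value, 0.67. *Eef1akmt2*, which encodes a methyltransferase of eEF1A, had 130 and 163 reads, a log2 ratio of 0.19 (−0.15 to 0.53) and a relative value of 0.66. The intervals of both included 0 on the authors' totals, but where 0 lies depends on the scaling, and centring on all regions gave log2 ratios of 0.49 and 0.57. *Eif1ad* had 604 and 312 reads and a log2 ratio of −1.09 (−1.29 to −0.89), and *Eef1e1*, whose product belongs to the aminoacyl-tRNA synthetase complex, had 596 and 331 with −0.98 (−1.18 to −0.79). Both of these intervals lay below same-signal promoters. *Eif2d*, *Eef1akmt2* and *Eif3c*, the highest relative values, were also 3 of the 4 least enriched promoters in flox/flox, the library by which the ratio divides. *Eif2ak3*, next at 0.589 beside 0.590 for *Eif3c*, had a fold enrichment of 45.3 in flox/flox. *Eif3l*, the other of the 4, had a relative value of −0.12.

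Other genes of translation were read the same way. For the 79 cytosolic ribosomal protein promoters the log2 ratio had a median of −0.52 and the relative value one of 0.12, with 29 intervals above and 14 below. The 60 mitochondrial ones had −0.62 and −0.027, with 10 above and 21 below. Of 8 genes for termination, recycling and poly(A) binding, all had a promoter region, with a median relative value of 0.049, 2 above (*Pabpc4* and *Paip1*) and 0 below. A mixed list of 17 genes, mostly for regulators and modifiers of translation factors, had a promoter region for 14, with a median of 0.23, 8 above and 1 below. The list includes *Mtor*, with 689 and 569 reads and 0.24, and *Dhps* and *Dohh*, which make the hypusine of eIF5A, with 0.34 and 0.35. The 1 below was *Eefsec*, the elongation factor for selenocysteine and not a regulator, with 317 and 135 reads, a log2 ratio of −1.36 (−1.67 to −1.07). The mitochondrial translation factors had a promoter region for 7 of 8 genes, a median relative value of −0.20, 1 above and 3 below, the lowest being *Gfm1* with 547 and 223 reads. Against the backgrounds of 28.4% above and 29.2% below, no comparison between these lists was tested.

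Beyond the promoters, 73 regions lay closest to 29 of the genes. Their median log2 ratio was −0.25, beside −0.27 over all 55162 regions outside promoters. At least 2-fold higher in HKO were 9 (12.3%, against 15.6% of all regions outside promoters), and at least 2-fold lower 9 (12.3%, against 18.8%). A peak was called in both libraries in 42 (57.5%, against 56.1% of all regions outside promoters), in HKO alone in 21 (28.8%, against 24.9%) and in flox/flox alone in 10 (13.7%, against 19.1%). Most were weak, as such regions were in general: 43 of the 73 had a mean below 2 RPM, beside 36469 of all 55162. The direction of a region that only 1 library called depends largely on how it was found: of the 21 called in HKO alone, 20 had a log2 ratio above 0, and all 10 called in flox/flox alone had one below 0. Over all regions outside promoters, 13024 of the 13720 called in HKO alone were above 0 and 10202 of the 10513 called in flox/flox alone were below 0. Being closest to a gene does not show that a region acts on it.

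**Figure D4:**
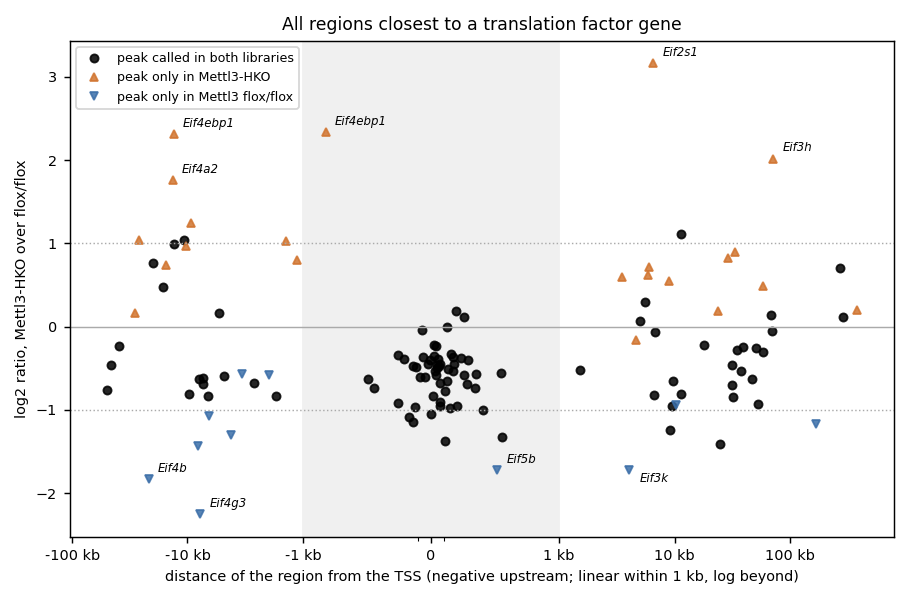
Log2 ratio of all 128 regions against distance from the TSS of the closest gene (negative upstream, linear within 1 kb and log beyond; the grey band is the promoter window). Black circles had a peak in both libraries, orange triangles in HKO alone and blue triangles in flox/flox alone. The promoters bunch between −1.38 and 0.19, and the regions outside spread from −2.25 to 3.16.

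The region with the highest ratio was in intron 2 of *Eif2s1*, at chr12:78868151-78868557 (GRCm38). It had 11 reads in flox/flox and 117 in HKO, a log2 ratio of 3.16 (2.38 to 4.32). The *Eif2s1* promoter 6.53 kb away had fewer reads in HKO, as given above. In intron 5 of *Eif3h*, a region at chr15:51793389-51793636 had 19 and 88 reads, a log2 ratio of 2.02 (1.35 to 2.87). It is 1 of 10 regions outside the promoter of *Eif3h*, whose median was 0.13 and of which 1 was 2-fold higher and 2 lower. Upstream of *Eif4a2*, regions at 13.5 kb and 1.39 kb had 17 and 66 reads and 45 and 102 reads, with log2 ratios of 1.76 (1.04 to 2.68) and 1.03 (0.53 to 1.58). A region in intron 9 of *Eif2d* had 46 and 111 reads, a log2 ratio of 1.12 (0.63 to 1.66), and one 26.5 kb upstream of *Eif4g3* had 19 and 44, a log2 ratio of 1.03 (0.27 to 1.93). Of these higher regions, only that of *Eif2d* was called as a peak in both libraries, and the others were called in HKO alone. Among all regions outside promoters called in HKO alone, 54.4% were at least 2-fold higher.

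Several regions around *Eif4ebp1*, on chromosome 8, had more reads in HKO. Of 6 outside the promoter window, 3 were at least 2-fold higher in HKO and 1 at least 2-fold lower, against 15.6% and 18.8% of all regions outside promoters. A peak was called in HKO alone in 3 of the 6, and 54.4% of all regions outside promoters called in HKO alone were at least 2-fold higher. Those higher lay upstream, at 13.1 kb (chr8:27247067-27247439, 24 reads in flox/flox and 135 in HKO, log2 ratio 2.31, interval 1.72 to 3.05), 10.7 kb (34 and 78) and 9.41 kb (46 and 121). A region at 10.2 kb lay just under 2-fold, with 55 and 119 reads and a log2 ratio of 0.96. Within the window, a second region 820 bp upstream of the TSS (chr8:27259382-27259637) had 31 and 176 reads, a log2 ratio of 2.33 (1.81 to 2.97), and a peak called in HKO alone. The promoter region beside it had fewer reads in HKO, 1909 against 1420 (log2 ratio −0.56, −0.66 to −0.46). The region at 6.45 kb went the other way, with 66 and 34 reads, and one in intron 1 had 270 and 363 (log2 ratio 0.29, 0.060 to 0.52). The sign of the promoter's own ratio depends on the scaling, with −0.18 after centring on all regions, −0.051 when scaled to reads on regions and 0.092 after centring on the strongest 10% of promoters.

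**Figure D5:**
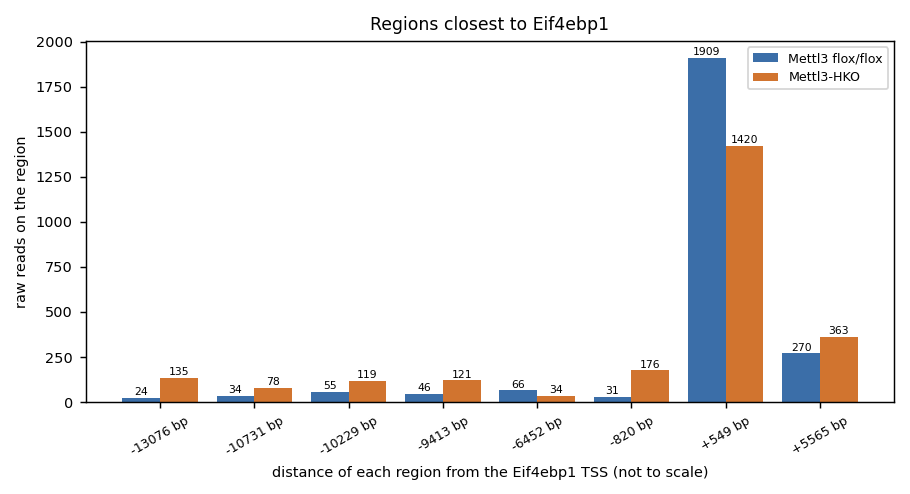
Raw reads on the 8 regions closest to *Eif4ebp1* in the *Mettl3* flox/flox library (blue) and the *Mettl3*-HKO library (orange), in order of distance from the TSS; the spacing is not to scale. The promoter at +549 bp holds 1909 and 1420 reads, and the regions at −13076 bp and −820 bp hold 24 and 135 and 31 and 176.

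Lower in HKO outside promoters were a region 7.72 kb upstream of *Eif4g3*, with 38 reads in flox/flox and 8 in HKO (log2 ratio −2.25, −3.69 to −1.26), and one 21.5 kb upstream of *Eif4b*, with 51 and 15 (−1.84, −2.84 to −1.05). Intron 3 of *Eif3k* held a region with 116 and 38 reads (−1.72, −2.31 to −1.21). Upstream of *Eif4h*, at 8.16 kb, were 58 and 23 reads (−1.43). Intron 2 of *Eif3h* had 130 and 53 (−1.41), and a region 169 kb downstream had 38 and 18 (−1.17). The region 4.22 kb upstream of *Eif1* had 234 and 104 reads (−1.30) and that in intron 1 of *Eef2k* had 337 and 156 (−1.24). With the *Eif4ebp1* region at 6.45 kb these make up the 9. All but those of *Eef2k* and of intron 2 of *Eif3h* were called as peaks in flox/flox alone.

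Further regions inside the promoter window were lower for *Eif4g1*, 557 bp downstream of the TSS in intron 1, with 405 and 177 reads (log2 ratio −1.33, −1.59 to −1.07), and for *Eif5b*, 518 bp downstream in intron 1, with 128 and 42 (−1.72, −2.28 to −1.23). Each was lower than the main promoter region of its gene, whose intervals did not reach these values. The window of 1000 bp divided few regions: just inside lay those of *Eif4g1* at 557 bp and *Eif4ebp1* at 820 bp, and just outside those of *Eif3h* at 1125 bp (95 and 183 reads) and *Eif4a2* at 1388 bp.

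The most regions belonged to *Eif1a*, with 14. Its 13 outside the promoter ran from 6.70 to 58.9 kb downstream, with log2 ratios from −0.96 to 0.49 around a median of −0.53, and none was 2-fold away from equality. *Eif3h* had 11, *Eif4ebp1* 8, *Eif4g3* 6 and *Eif2d* 5, while 28 genes had a single region. For the 3 genes without a promoter region, *Eif3m* had a region 9.70 kb upstream with 808 and 505 reads (log2 ratio −0.81), *Eef1akmt3* one in its last intron with 45 and 52 reads (0.069), and *Eif3j2* had 3 regions with log2 ratios from −0.47 to 0.74. The *Eef1akmt3* interval and 1 of those of *Eif3j2* included 0.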

How the data were processed

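ATAC-seq was analysed for 1 *Mettl3* flox/flox and 1 *Mettl3*-HKO liver library, grouped by the labels. The authors trimmed reads with skewer, aligned them with BWA to GRCm38, kept properly paired non-mitochondrial reads with a mapping quality of at least 13, and called peaks per library with MACS2 while keeping duplicates. How reads were counted on merged regions, and any shift for the Tn5 cut, is not given in the sources used here. The authors deposited raw counts, RPM values (count plus 1 over the library total) and fold enrichment values, the read density of a region as a ratio to that of the whole genome. A deposited column of log2 fold changes holds the authors' own comparison and was not used.

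The table has 74821 rows, of which 5272 repeat a region and were dropped. Symbols were given for 14588 of 27433 genes (53.2%). Log2 ratios were computed from the counts with 1 read added, on totals recovered from the RPM values, with Clopper-Pearson intervals at 95%. With 1 library per group no test was made. Called means at least 2-fold, or an interval wholly on 1 side of the median of the 1000 promoters nearest in mean RPM. PCR duplicates make reads less independent than the intervals assume. A member promoter had a median of 767 reads in flox/flox and 561.5 in HKO.

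Genes were named by rule: in each role the strongest, highest and lowest promoter, every promoter at least 2-fold apart or with its interval above, the 5 lowest of those below, a core set of factors, regions outside promoters at least 2-fold apart, and the genes with most regions. The members, roles and lists were chosen with earlier results of these data known. The scripts were tested on simulated counts. Alternatives covered scaling, added reads, promoter window, region choice, signal, fold threshold and the number and length of neighbours. Promoter sequences and starts are from RefSeq, GRCm38. Computation ran in Python 3.11.15 with scipy 1.17.1, pandas 2.3.3 and numpy 2.4.6, and plots in matplotlib 3.10.9.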

Additional observations from a re-analysis of the deposited data

How the results depend on the processing

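The sign of the median depended on the scaling, and the 2-fold counts on the scaling, the fold threshold and the filter on signal. The median log2 ratio of the 52 promoters, −0.54 on the authors' totals, was −0.16 after centring on all regions, −0.024 when scaled to reads on regions and 0.12 after centring on the strongest 10% of promoters. The number at least 2-fold lower, 4, was 0 under each of these 3 scalings, where 4.61%, 2.90% and 1.79% of all promoters were lower. The number with a log2 ratio below 0, 50, was 17 after centring on the strongest 10% (41.2% of all promoters) and 28 when scaled to reads on regions (55.7%). The number at least 2-fold lower was 2 among the 38 members in the upper 50% of mean RPM (5.26%, against 15.6% of those promoters), and at a threshold of 1.5-fold it was 22 (42.3%, against 48.2% of all promoters), with none higher (against 6.75%). For regions outside promoters, the count at least 2-fold higher, 9, was 18 after centring on all regions (24.7%, against 23.5% of all such regions) and 20 at 1.5-fold (27.4%, against 24.3%). Among the 56 with a mean count of 50 or more it was 7 (12.5%, against 8.27%). The count lower, 9, was 5 after centring on all regions (6.85%, against 8.65%), 27 at 1.5-fold (37.0%, against 36.5%) and 5 among the 56 with a mean count of 50 or more (8.93%, against 19.9%). These alternatives for regions outside promoters, the counts below 0 and the medians without the sex chromosomes were added after seeing the data. For the measures relative to same-signal promoters, the alternatives gave a median relative value of 0.089 to 0.11, with 14 to 20 intervals above and 8 to 14 below. The lowest counts came from smaller sets. Of the 39 promoters of translation factors proper, 14 were above (35.9%) and 9 below (23.1%), against 28.4% and 29.2% of all promoters. Of the 38 members in the upper 50% of mean RPM, 15 were above and 8 below. Adding 10 or 0.5 reads left all 52 promoter ratios within their intervals, while each of the 3 scalings moved at least 51 out of them. With 0.5 reads added, however, the *Eif4g3* promoter passed the 2-fold mark, at a log2 ratio of −1.0006.

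Depth limits the weaker regions: 43 of the 73 regions outside promoters had a mean below 2 RPM (36469 of 55162 over all genes), and the lowest read count of a member region was 8. No replicate error exists, so no interval covers differences between mice. No paired analysis was possible because each group has 1 library.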

Other observations

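The symbol rule missed 16 protein-coding factor genes of the RefSeq table. A region lay over a RefSeq start of 9 of them, in regions assigned to another symbol or to a gene without one. *Eef1a2* and *Eif4a3l1* had a RefSeq start and no region over it. No start in the promoter table was found for 5 (*Eef1akmt1*, *Eef1d*, *Eif3i*, *Eif4e1b* and *Eif6*), so *Eef1d* and *Eif6* of the core set have no value here. Over the 8 distinct regions the median log2 ratio was −0.63 and the range −1.05 to −0.24, with a median relative value of −0.051. *Eif4e*, the cap-binding protein itself, had 1384 reads in flox/flox and 1291 in HKO, a log2 ratio of −0.24 (interval −0.35 to −0.13) and a relative value of 0.40. *Eif3j1* had 1698 and 1506 reads and a relative value of 0.35, and *Eif1b* had 331 and 264 with 0.13. *Eif2a*, whose start lies in a region assigned to *Serp1*, had 2448 and 1301 reads, a log2 ratio of −1.05 (−1.15 to −0.95) and a relative value of −0.39, and *Serp1* shares that value. *Eef1aknmt* (852 and 469 reads, −0.36), *Eif2b4* (1244 and 806, −0.14) and *Eif2b1* (231 and 178, 0.039) lay in regions assigned to *Mettl13* (an older symbol of *Eef1aknmt*), *Snx17* and *Gtf2h3*. The intervals of *Eif2a*, *Eef1aknmt* and *Eif2b4* lay wholly below their same-signal medians and those of *Eif4e* and *Eif3j1* wholly above, beside 29.2% below and 28.4% above over all promoters. *Eef1akmt4* and its readthrough gene shared 1 region assigned to *Alg3*, with 338 and 221 reads and −0.16. These genes were found after the member values were seen and enter no count of the report.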
